A study of Mus musculus with 8 samples.

Results

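This account follows 8 genes of necroptosis, death-receptor signalling and inflammatory caspases, namely Mlkl, Ripk1, Ripk3, Zbp1, Casp1, Casp4, Casp8 and Fas. The genes were listed by name, but the set was selected on measured values, because Mlkl was among the largest differences between embryoid bodies labelled Bmi1 and embryoid bodies labelled empty vector. Of the 8 genes, 7 had at least 1 probe set annotated to that gene alone, out of 18193 genes named in this way. Ripk1 had none and was not analysed here. The 7 genes were read by 8 probe sets, because Zbp1 had 2.

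The study profiled mouse CCE embryonic stem (ES) cells of strain 129/Sv, before and after differentiation, on 8 Affymetrix arrays. Bmi1 is a Polycomb group protein of the complex that silences chromatin, and the series title places it in blood cell development from ES cells. Lentivirus carrying mouse Bmi1 cDNA or an empty vector was used on ES cells kept with leukemia inhibitory factor, and eGFP-positive cells were sorted by flow cytometry. Embryoid bodies, which are aggregates in which ES cells differentiate into many cell types, were harvested at day 10.

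The groups were embryoid bodies labelled Bmi1 (n = 2), embryoid bodies labelled empty vector (n = 2), ES cells labelled Bmi1 (n = 2) and control ES cells (n = 2). The control ES cell group joined 1 array labelled untreated CCE cells, without virus per its title, and 1 array labelled empty vector. The labels do not say which promoter drove the cDNA, whether the sorted cells were clones, or whether replicates came from separate cultures. If the replicates were technical, the p-values below measure only that spread. Precision throughout is limited by having 2 arrays in each group. Each SE after ± comes from 1 estimate of spread per gene, shared by all 4 groups. It is therefore not the spread of the compared groups alone.

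Some facts about the whole series bear on all values below. The signal of Bmi1 itself was lower on the arrays labelled Bmi1, at 7.48 and 8.51 log2 units where the vector embryoid bodies had 9.35 and 9.67, and at 5.68 and 6.28 against 7.41 and 7.74 in ES cells. The sources used here do not say whether the probes lie within the introduced cDNA, so the groups are called "labelled Bmi1" throughout. By their value distributions the arrays fell into 3 sets, the embryoid bodies numbered 1, those numbered 2, and the 4 ES cell arrays. After sorting each array's values, arrays of the same set differed on average by 0.0099 to 0.0325 log2 units (8 pairs) and arrays of different sets by 0.189 to 0.442 (20 pairs). Because each set held a single stage, stage and set cannot be told apart, while each embryoid body set held both vectors. The 6 ES cell markers, among them Pou5f1 and Nanog, averaged 12.3 to 12.8 in ES cells and 8.23 to 10.4 in embryoid bodies.

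Necroptosis is a lytic form of cell death. Death receptors such as Fas recruit caspase-8, which can start apoptosis and at the same time holds the kinases RIPK1 and RIPK3 in check. When caspase-8 is blocked, or when the nucleic acid sensor ZBP1 engages RIPK3, RIPK3 phosphorylates MLKL, the pseudokinase that then permeabilises the plasma membrane. Caspase-1 and caspase-4 (also called caspase-11 in the mouse) are inflammatory caspases, which cleave gasdermin D and so cause pyroptosis, a lytic death best known in macrophages and other myeloid cells.

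Mlkl, the executioner of necroptosis, was the gene that defined the set. Its level in log2 units was 7.41 and 6.97 in embryoid bodies labelled Bmi1, and 4.91 and 5.34 in embryoid bodies labelled vector. The vector values were below the array median. The groups did not overlap, and the difference of 2.07 ± 0.24 log2 units (SE, n = 2 against 2) corresponds to 4.19-fold. Within the sets the difference was 2.50 for the arrays numbered 1 and 1.63 for those numbered 2. This contrast chose the gene, so these values and the rank of the difference, the 31st largest rise among 12982 genes, are a description, with no test. Of all genes 0.139% were called in this comparison (2.09% when the embryoid body set was a block).

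The ES cell arrays were not used in that choice. The SE and p-values below, however, also draw on the spread of the embryoid body arrays that were, so they are not independent of it. There Mlkl stood at 6.99 and 7.27 on the arrays labelled Bmi1, at 6.11 in untreated cells and at 5.87 in vector cells. Both arrays labelled Bmi1 were above both controls, and the difference was 1.15 ± 0.24 (SE, n = 2 against 2), or 2.21-fold. It ranked 176th among 12982 genes ordered from the largest rise. The difference did not pass limma's test after Benjamini-Hochberg adjustment over all genes (adjusted p = 0.21), and when the embryoid body set was a block the adjusted p was 0.07. Over the processing alternatives the adjusted p ran from 0.0053 with array weights to 0.72 after quantile normalization, while the difference itself ran from 1.02 to 1.16. Leaving out single arrays gave differences of 1.00 to 1.29.

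The Mlkl differences, 2.07 in embryoid bodies and 1.15 in ES cells, were set side by side without a test, because the former contains the contrast that chose the gene. Their difference was 0.92 ± 0.34. The levels in the groups labelled Bmi1 were near each other at both stages, with means of 7.19 in embryoid bodies and 7.13 in ES cells. Those in the controls were 5.12 in vector embryoid bodies and 5.99 in control ES cells. The plot of levels by array shows this pattern for Mlkl beside those of the other 6 genes.

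**Figure D1:**
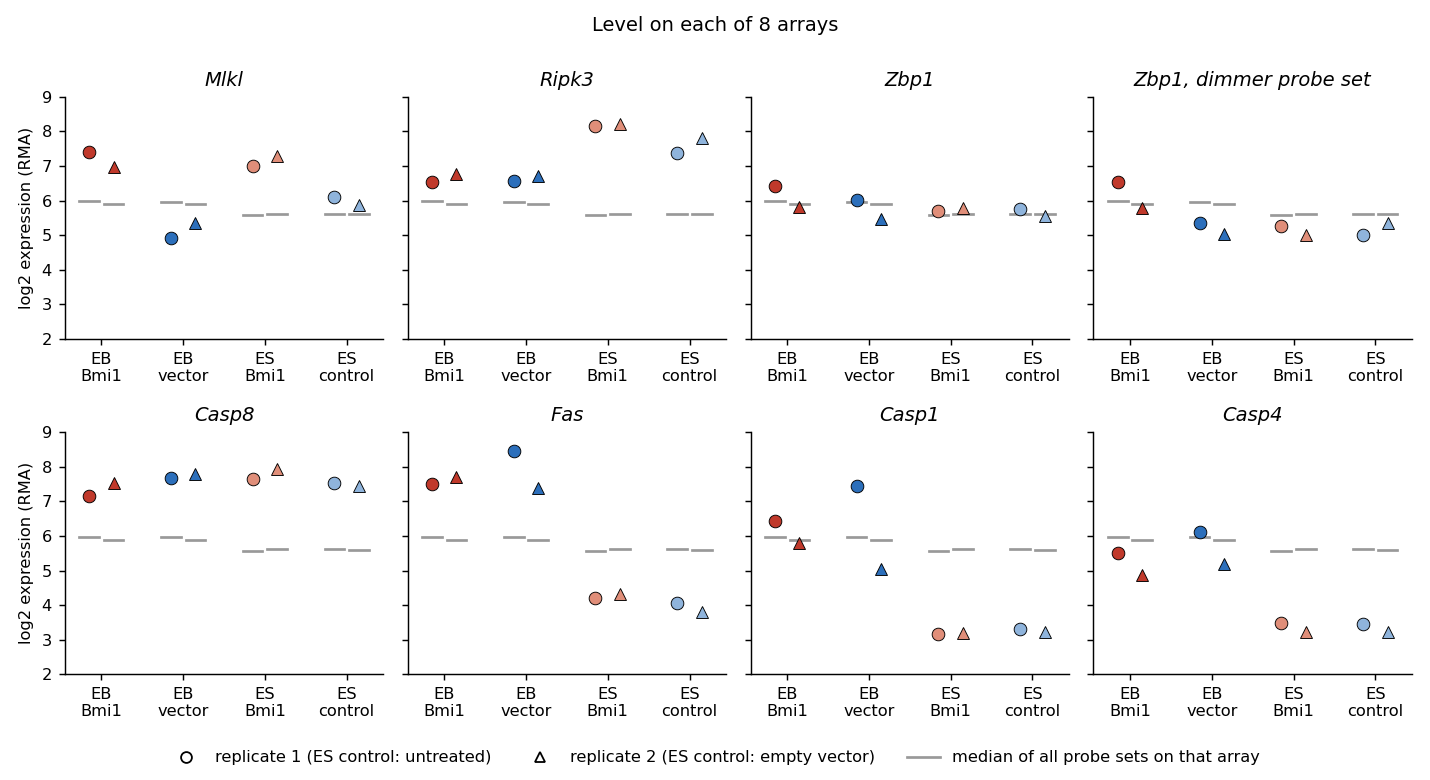
Level of the 7 measured genes on each of the 8 arrays, in log2 units of deposited expression, by group on the horizontal axis; circles are replicate 1 (untreated cells in the ES control group), triangles are replicate 2, grey lines are the median of all probe sets on that array, and Zbp1 has a panel for each of its 2 probe sets. Mlkl is above 6.9 on all 4 arrays labelled Bmi1 and below 6.2 on the other 4, while Casp1, Casp4 and Fas are separated by stage.

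Ripk3, the kinase that activates MLKL, did not follow Mlkl in embryoid bodies. It stood at 6.54 and 6.78 on the arrays labelled Bmi1 and at 6.55 and 6.71 on the vector arrays. The groups overlapped, with a difference of 0.029 ± 0.20. In ES cells Ripk3 stood at 8.15 and 8.21 on the arrays labelled Bmi1, against 7.38 in untreated and 7.81 in vector cells. The groups did not overlap, and the difference was 0.58 ± 0.20 (SE). It did not pass limma's test after adjustment (adjusted p = 0.6, or 0.15 with the block).

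Zbp1, the nucleic acid sensor upstream of RIPK3 and an interferon-induced gene, was read by a brighter and a dimmer probe set. The brighter one gave 6.42 and 5.80 in embryoid bodies labelled Bmi1 and 6.02 and 5.46 in vector embryoid bodies. These ranges overlapped, but within each set the array labelled Bmi1 was the higher, by 0.40 and 0.35. The dimmer one, which failed the filter on dim genes, gave 6.52 and 5.77 against 5.34 and 5.02, with no overlap and a difference of 0.97. In ES cells the 4 values of the brighter probe set were 5.68 and 5.80 on the arrays labelled Bmi1 and 5.77 and 5.55 in the controls. They overlapped, with a difference of 0.083 ± 0.28 and an adjusted p of 1 by limma. The dimmer probe set differed by -0.059 in ES cells.

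Casp8, whose protease holds necroptosis back, stood at 7.14 and 7.53 in embryoid bodies labelled Bmi1 and at 7.66 and 7.80 in vector embryoid bodies. Both arrays labelled Bmi1 were below both vector arrays, by 0.40 ± 0.20 on average. In ES cells the order was the opposite, with 7.65 and 7.94 labelled Bmi1 against 7.52 untreated and 7.45 vector. The ES cell difference was 0.31 ± 0.20, and it did not pass limma's test after adjustment (adjusted p = 1, or 0.42 with the block).

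Fas, the death receptor, gave 7.50 and 7.71 in embryoid bodies labelled Bmi1 and 8.44 and 7.39 in those labelled vector. The groups overlapped, and the sets pointed in opposite directions, with differences of -0.94 and 0.32. In ES cells Fas was near the bottom of the scale, at 4.21 and 4.33 on arrays labelled Bmi1, 4.07 in untreated and 3.81 in vector cells. Those groups did not overlap, and their difference was 0.33 ± 0.33 (adjusted p = 1 by limma). This SE also takes in the vector embryoid body arrays, which were 1.05 apart. Within the ES cell groups the arrays were 0.12 (labelled Bmi1) and 0.25 (control) apart.

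Casp1, the caspase of the canonical inflammasome that matures interleukin-1 beta, gave 6.43 and 5.79 in embryoid bodies labelled Bmi1, and 7.45 and 5.05 in vector embryoid bodies. The vector arrays lay on either side of the arrays labelled Bmi1 and were 2.40 log2 units apart. The differences within the sets were -1.02 and 0.74. Casp4, the sensor of cytosolic lipopolysaccharide, gave 5.52 and 4.88 labelled Bmi1, and 6.12 and 5.18 labelled vector. It was above the array median on 1 array, the vector embryoid body array numbered 1. It therefore failed the filter (above the median on at least 2 arrays) and was tested only in the fit with no filter. In ES cells Casp1 differed by -0.095 ± 0.67 (adjusted p = 1 by limma) and Casp4 by 0.025. For Casp1 the ES cell arrays lay only 0.042 (labelled Bmi1) and 0.11 (control) apart within their groups. The SE of 0.67 thus largely carries the spread of the embryoid body arrays.

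In ES cells, then, 6 of the 7 measured genes had a higher mean on the arrays labelled Bmi1. The share of all genes with a higher mean was not counted, so this is a description. Of the 6, Zbp1 differed by 0.083 ± 0.28 and Casp4 by 0.025. Fas, Casp1 and Casp4 were below the array median on all 4 ES cell arrays. Of the 6 tested members, which leave out Casp4, 4 lay wholly above their controls (Mlkl, Ripk3, Casp8 and Fas) and 1 wholly below (Casp1). Mlkl, which chose the set, is among the 4, so these counts are a description. Among all genes tested, 25.1% lay wholly above and 20.6% wholly below their controls in this comparison. None of the 6 tested members was called by limma, where 0.0462% of all genes were called (1.66% with the block). At an unadjusted p under 0.05 there were 2 members, Mlkl and Ripk3, and 817 of all genes. The median difference over the 7 genes, which was that of Casp8, was 0.31, beside 0.004 over all genes tested. In embryoid bodies the corresponding medians were -0.14 and -0.044, and 1 member lay wholly above (Mlkl) and 1 wholly below (Casp8) the vector arrays, beside 10.8% and 14.4% of all genes. The plot of differences by gene sets both stages side by side.

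**Figure D2:**
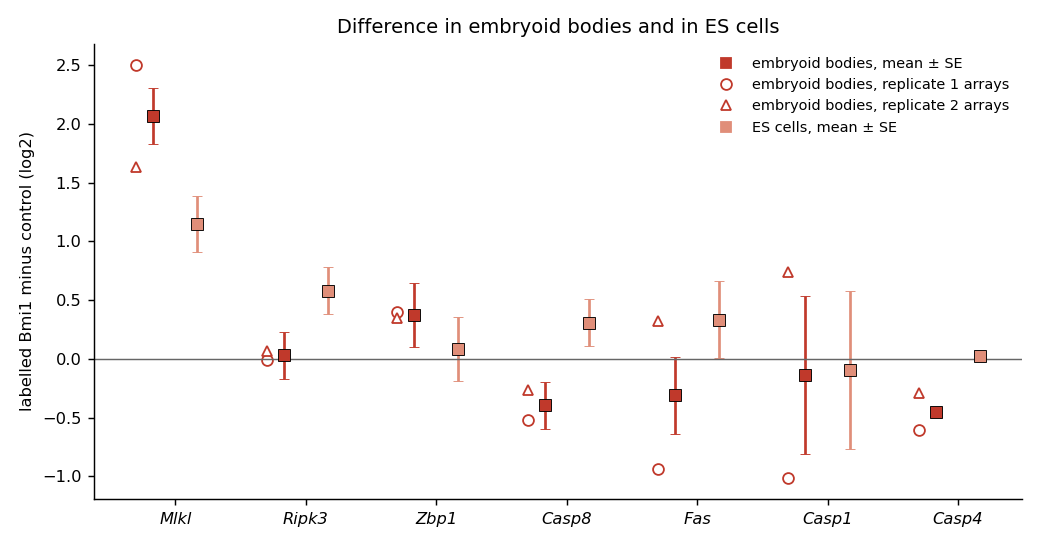
Difference between arrays labelled Bmi1 and their controls for each of the 7 measured genes, in log2 units, in embryoid bodies and in ES cells; squares are means with SE from the fit where the gene was tested, and open circles and triangles are the differences within the embryoid body arrays numbered 1 and 2. Mlkl is above 0 at both stages, with 2.07 in embryoid bodies and 1.15 in ES cells, while the 2 sets of Casp1 lie on opposite sides of 0.

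Between stages, the receptor Fas and the inflammatory caspase Casp1 rose in embryoid bodies relative to ES cells, and the kinase Ripk3 fell. Fas was 3.97 ± 0.33 log2 units higher in vector embryoid bodies than in control ES cells, or 15.7-fold (adjusted p = 0.00015 by limma). Among the arrays labelled Bmi1 it was 3.33 ± 0.33 higher, or 10.1-fold (adjusted p = 0.00032). Fas was below the array median on all 4 ES cell arrays and passed the filter through embryoid body arrays; with no filter, over 18193 genes, the adjusted p-values were 0.00012 and 0.00026. All 4 embryoid body arrays were at or above 7.39, and all 4 ES cell arrays were at or below 4.33.

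Casp1 was 2.98 ± 0.67 higher in vector embryoid bodies (7.88-fold, adjusted p = 0.0076 by limma) and 2.94 ± 0.67 higher among arrays labelled Bmi1 (7.65-fold, adjusted p = 0.0082). Casp1 passed the filter through 2 embryoid body arrays alone, and with no filter the adjusted p-values were 0.0073 and 0.0079. The 4 ES cell values lay between 3.16 and 3.33, and the lowest embryoid body value was 5.05. Without the vector embryoid body array numbered 1 the vector difference was 1.78, and Casp1 no longer passed the filter. Without the array labelled Bmi1 and numbered 1 the other difference was 2.61, again without a test. Casp4, which was above the array median on 1 array and failed the filter, showed the same order. It differed by 2.31 in the vector or control arrays and by 1.84 in those labelled Bmi1. With no filter, limma gave Casp4 adjusted p-values of 0.0013 and 0.0037.

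Ripk3 fell by 0.97 ± 0.20 in vector embryoid bodies relative to control ES cells (adjusted p = 0.0054 by limma) and by 1.52 ± 0.20 among the arrays labelled Bmi1 (adjusted p = 0.0009). Its lowest ES cell value was 7.38 and its highest embryoid body value was 6.78. Mlkl was 0.86 ± 0.24 lower in vector embryoid bodies than in control ES cells, and 0.058 ± 0.24 higher among arrays labelled Bmi1, where median centring turned the difference to -0.29. These Mlkl values share the arrays that chose the gene and are given without a test.

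Casp8 and Zbp1 did not pass the test between stages. Casp8 differed by 0.25 ± 0.20 in the vector or control arrays (adjusted p = 0.32 by limma, and -0.075 after median centring). Among arrays labelled Bmi1 it differed by -0.46 ± 0.20 (adjusted p = 0.085, or 0.021 with the block and 0.014 after median centring). Zbp1 differed by 0.082 ± 0.28 in the vector or control arrays (adjusted p = 0.82), turning to -0.22 after quantile normalization and to -0.24 after median centring. Among arrays labelled Bmi1 it differed by 0.37 ± 0.28 (adjusted p = 0.28, or 0.029 with the block). These values are from the brighter Zbp1 probe set. The dimmer one, which failed the filter, differed by 0.001 in the vector or control arrays and by 1.025 among arrays labelled Bmi1.

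Calls were common in these comparisons. In the vector or control arrays 22.7% of all genes tested were called higher and 35.8% lower in embryoid bodies, and in the arrays labelled Bmi1 21.2% were called higher and 38% lower (27.8% and 46.6% with the block). Counts of called members are not read against these shares, because Mlkl chose the set and Casp1 and Fas passed the filter through embryoid body arrays. Scaling moved the balance of calls. The share called higher, of all calls, was 38.8% in the vector or control arrays as deposited, 48.8% after quantile normalization and 26.6% after median centring. In the arrays labelled Bmi1 it was 35.8%, 47.5% and 22.8%. The median difference of all genes between stages moved with it, from -0.24 as deposited to -0.04 and -0.56 in the vector or control arrays, and from -0.27 to -0.025 and -0.62 in those labelled Bmi1. The directions of Fas, Casp1, Casp4 and Ripk3 were the same under all 3 scalings.

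**Figure D3:**
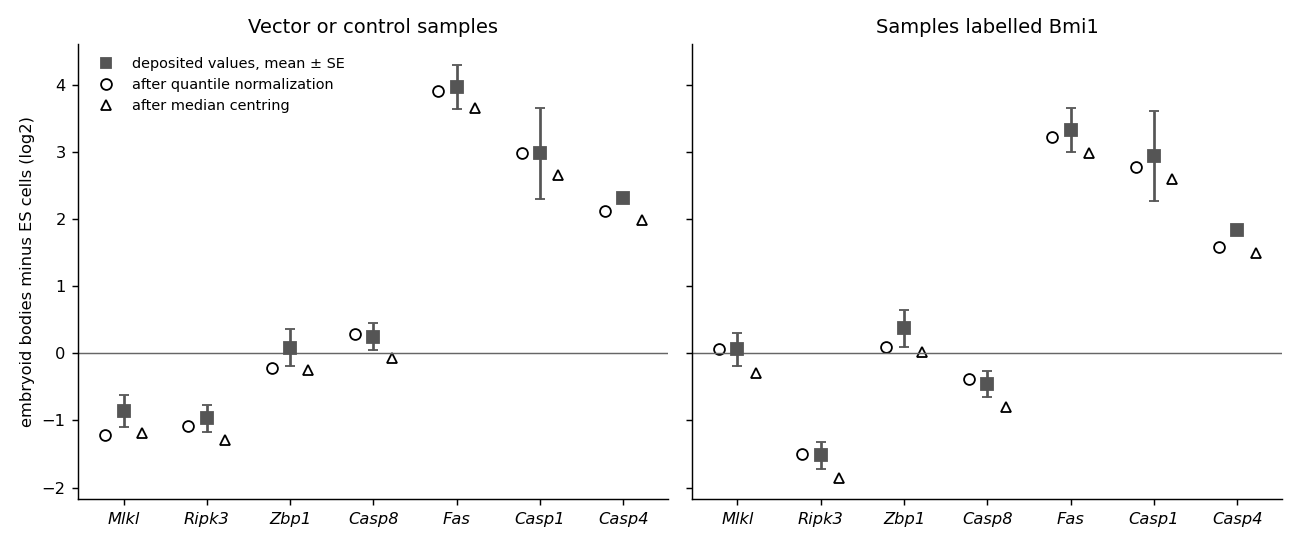
Difference between embryoid bodies and ES cells for each of the 7 measured genes, in log2 units, for the vector or control arrays (left) and the arrays labelled Bmi1 (right); squares are the deposited values with SE where tested, and open circles and triangles are the same differences after quantile normalization and after median centring. Fas, Casp1 and Casp4 stay above 0 and Ripk3 below 0 under the 3 scalings, while Zbp1 and Casp8 on the left and Mlkl on the right cross 0.

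Markers of other cell types moved with some of these genes. The mean of 12 leukocyte markers, among them Ptprc, Csf1r and Tyrobp, was 7.78 and 7.54 in embryoid bodies labelled Bmi1, 8.80 and 6.71 in vector embryoid bodies, and 5.29 to 5.56 in ES cells. Of the 12 markers, 10 to 12 were above the array median in embryoid bodies and 3 in ES cells, which were Laptm5, Cd68 and Coro1a. These 3 did not rise between stages: in the vector or control arrays Laptm5 fell by 1.38 ± 0.50, Cd68 differed by -0.081 ± 0.20 and Coro1a by 0.18 ± 0.38, and among arrays labelled Bmi1 the differences were -0.84, 0.41 and -1.01. Over the 4 embryoid body arrays this mean had the same order as Casp1, with the vector array numbered 1 highest and the vector array numbered 2 lowest. Il1b, the cytokine that caspase-1 matures, was highest and lowest on the same arrays, at 9.31 and 7.02, with 7.70 and 7.78 on the arrays labelled Bmi1. Casp4 and Fas were also highest on the vector array numbered 1, but did not keep the order of the marker mean. Casp4 was lowest, at 4.88, on the array labelled Bmi1 and numbered 2. Fas was higher on that array, at 7.71, than on the array labelled Bmi1 and numbered 1, at 7.50. In these bulk samples, more or fewer cells of a type and more or less RNA per cell cannot be told apart, and the part of leukocytes in the Casp1, Casp4 and Fas values was not tested.

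**Figure D4:**
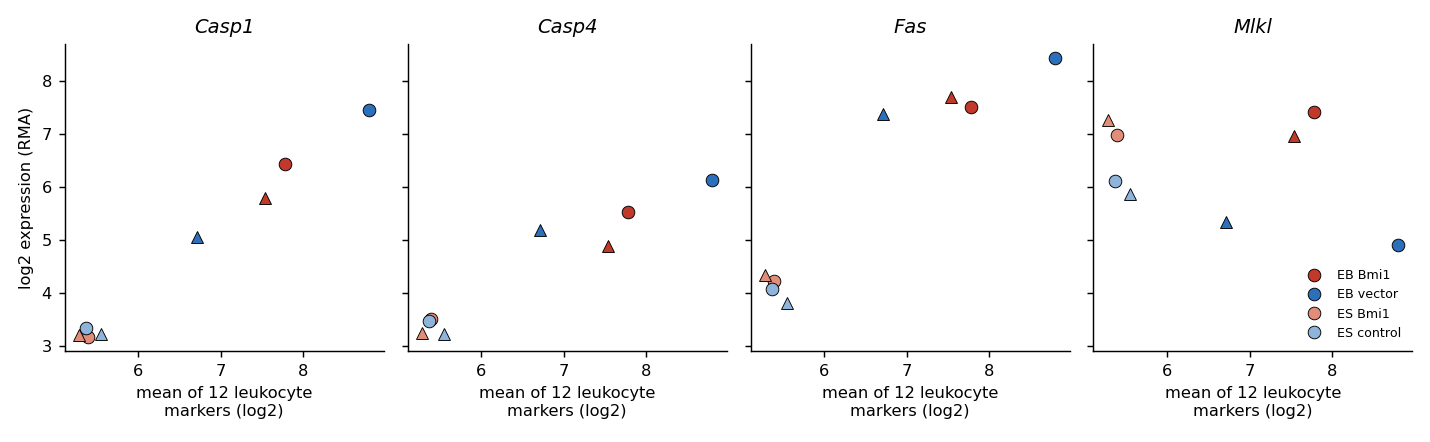
Level of Casp1, Casp4, Fas and Mlkl (vertical axes, log2 units) against the mean of 12 leukocyte markers (horizontal axes, log2 units); each point is 1 of the 8 arrays, coloured by group, with circles for replicate 1 and triangles for replicate 2. The 4 ES cell arrays lie at marker means of 5.29 to 5.56 and the embryoid body arrays at 6.71 to 8.80, and the vector array at 8.80 has the highest Casp1.

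Means of trophoblast, epithelial, endothelial and ES cell markers differed between arrays labelled Bmi1 and controls in at least 1 stage. The mean of 6 trophoblast markers was 8.46 and 8.36 in embryoid bodies labelled Bmi1 and 7.05 and 7.56 with vector. In ES cells it was 5.61 and 5.68 labelled Bmi1, 5.60 in untreated and 5.38 in vector cells. There 2 of the 6 were above the median on every array. The mean of 8 epithelial markers, among them Krt8, Krt18 and Epcam, was 9.40 and 9.48 against 8.35 and 9.35 in embryoid bodies. In ES cells it was 8.41 and 9.10 labelled Bmi1 against 8.07 in untreated and 8.23 in vector cells. The mean of 6 endothelial markers went the other way in embryoid bodies, at 7.10 and 7.47 against 8.12 and 8.16. That of the 6 ES cell markers was 12.5 and 12.3 in ES cells labelled Bmi1, 12.8 in untreated and 12.7 in vector cells. In embryoid bodies it was 8.54 and 9.85 labelled Bmi1 against 8.23 and 10.4 with vector. The part of these cell types in the Mlkl values was not tested.

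The 5 tested genes whose levels were most like those of Mlkl over the 8 arrays were AU015836, Pkp3, Phlda2, Rec8 and Hspa1b, with Pearson r of 0.962, 0.948, 0.948, 0.944 and 0.941. Pkp3 encodes plakophilin 3, a desmosome protein, Phlda2 is an imprinted gene known for limiting placental growth, Rec8 encodes a meiotic cohesin subunit, and Hspa1b an inducible Hsp70 chaperone. Phlda2 stood at 12.2 and 11.8 in embryoid bodies labelled Bmi1 against 10.0 and 10.9 with vector, and at 12.2 and 12.04 in ES cells labelled Bmi1 against 11.5 in untreated and 11.3 in vector cells. Hspa1b stood at 10.2 and 10.5 against 8.49 and 8.98 in embryoid bodies, and at 10.1 and 10.5 against 9.44 and 9.83 in ES cells. These genes were chosen for their likeness to Mlkl, so the shared pattern follows from the choice. These correlations describe 8 arrays that share the set structure above.

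The rest of the pathway was followed in 6 lists of genes, which held 78 entries, of which 70 had a probe set of their own and 60 passed the filter. In embryoid bodies none of the 60 was called between arrays labelled Bmi1 and vector by limma, where 0.139% of all genes were called. At an unadjusted p under 0.05 there were 917 of all 12982 genes, and 4 of the 60. With the set as a block, 2 of the 60 were called, both higher, where 1.35% of all genes were called higher. They were Tlr3, the endosomal receptor for double-stranded RNA, and Stat2, a transcription factor of the type I interferon response. Tlr3 stood at 6.57 and 6.33 against 5.25 and 5.10 with vector, a difference of 1.28 ± 0.26 (adjusted p = 0.19, or 0.048 with the block). It passed the filter through the arrays labelled Bmi1 alone, where it was high, so its call is not independent of the filter. Stat2 stood at 7.03 on both arrays labelled Bmi1 against 5.77 and 6.14 with vector, a difference of 1.07 ± 0.18 (adjusted p = 0.12, or 0.019 with the block). In ES cells Tlr3 differed by 0.38 ± 0.26 and Stat2 by 0.045 ± 0.18, both with an adjusted p of 1.

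In ES cells none of the 60 list genes was called between arrays labelled Bmi1 and controls by limma, without or with the block. Of all genes 0.0462% were called there, and 1.66% with the block. At an unadjusted p under 0.05 there were 817 of all 12982 genes, and 6 of the 60. The smallest p in the list of complex adaptors and brakes belonged to Tnfaip3, which encodes A20, a ubiquitin-editing brake on NF-kB signalling and on RIPK3. Its level was 6.68 and 6.58 labelled Bmi1, 5.21 in untreated and 5.95 in vector cells, so the untreated array was the farther from them. Its difference from the mean of the controls was 1.05 ± 0.30 (adjusted p = 0.42 by limma, or 0.11 with the block). Among the interferon signalling genes, Jak1, a kinase of the interferon receptors, differed by -0.73 ± 0.21 (adjusted p = 0.45), Irf1 by 0.61 ± 0.18 (adjusted p = 0.45) and Irf9, a subunit of an interferon-activated transcription factor complex, by -0.60 ± 0.19 (adjusted p = 0.53).

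**Figure D5:**
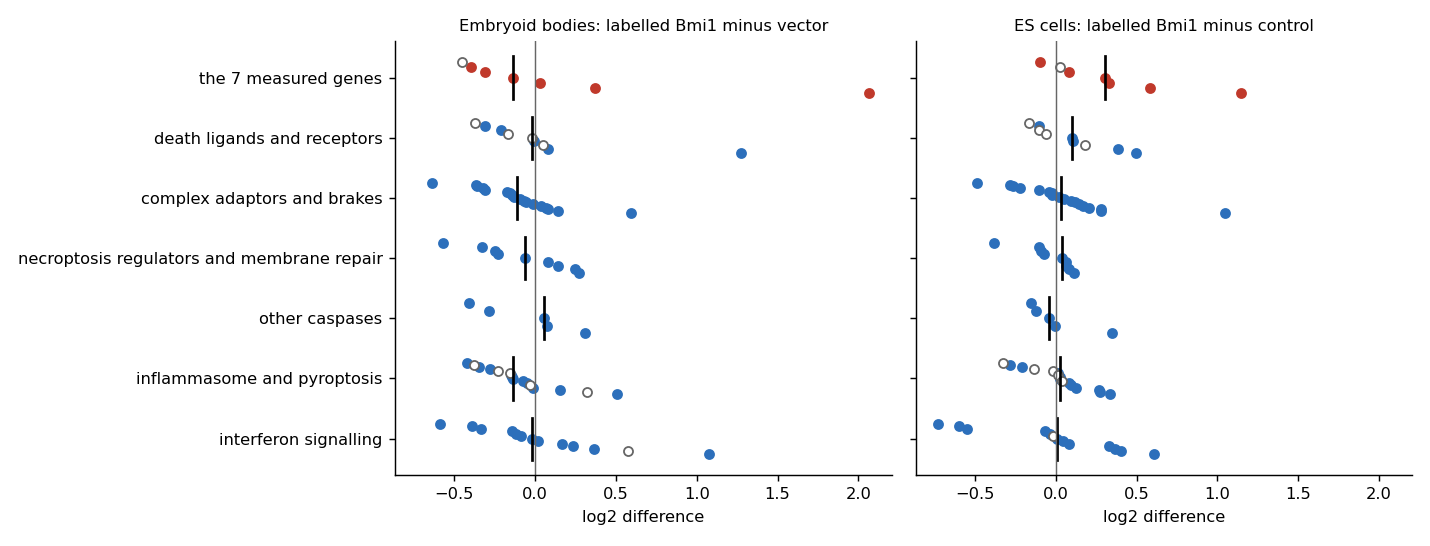
Log2 difference between arrays labelled Bmi1 and controls for the 7 measured genes and for the genes of the 6 pathway lists, in embryoid bodies (left) and ES cells (right); each point is a gene (open where it failed the filter), each row a list and each black bar its median. In embryoid bodies Mlkl at 2.07, Tlr3 at 1.28 and Stat2 at 1.07 lie farthest right, and in ES cells Mlkl at 1.15 and Tnfaip3 at 1.05.

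Between stages, 19 of the 60 tested list genes were called higher and 13 lower in vector embryoid bodies than in control ES cells (23 and 16 in the arrays labelled Bmi1). In the former comparison 22.7% of all genes were called higher and 35.8% lower, and in the arrays labelled Bmi1 21.2% and 38%. Calls were common in general and no list was tested against these shares. The counts therefore describe the lists and show nothing particular to them. Of the 19, 6 (Tnf, Tlr3, Casp12, Nlrp3, Il1b and Il18) were above the median on no ES cell array and passed the filter through embryoid body arrays, so their calls are not independent of the filter. The same holds for these 6 among the 23 called higher in arrays labelled Bmi1, and there for Naip6 and Stat2, which also needed embryoid body arrays to pass. Of the 5 tested death ligands and receptors 3 rose, which were Tnfrsf1a, the main receptor for TNF (1.86 ± 0.30, adjusted p = 0.0019), Tnf itself (1.33 ± 0.27) and Tlr3 (1.08 ± 0.26). Of the 18 complex adaptors and brakes 3 rose and 5 fell. Tnfaip3 rose by 2.32 ± 0.30 and Birc3, a ubiquitin ligase that modifies RIPK1, by 1.47 ± 0.24, while Rbck1, a subunit of the linear ubiquitin ligase, fell by 1.17 ± 0.20 and the kinase Tbk1 by 0.97 ± 0.18.

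Among 9 necroptosis regulators and membrane repair genes none rose and 6 fell in the vector or control arrays. The chaperone partners Cdc37 and Hsp90aa1 fell by 1.01 ± 0.19 and 1.07 ± 0.22, and the ubiquitin ligase gene Stub1 by 1.24 ± 0.24. Itpk1, an inositol phosphate kinase whose products help MLKL activation, fell by 1.98 ± 0.16. Of the 5 other caspases 3 rose, which were the executioner Casp6 (2.39 ± 0.23), Casp12 (2.24 ± 0.50) and the apoptosome initiator Casp9 (1.18 ± 0.39, adjusted p = 0.035).

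In the inflammasome and pyroptosis list 5 of 11 tested genes rose and 1 fell. Il18 rose by 2.36 ± 0.30, the gasdermin gene Gsdme by 1.92 ± 0.28 and the sensor Nlrp3 by 1.38 ± 0.25. The gene that fell was Pycard, which encodes ASC, the adaptor between inflammasome sensors and caspase-1, by 2.14 ± 0.24 (adjusted p = 0.00049 by limma). Pycard stood at 10.1 and 10.0 in ES cells labelled Bmi1 and at 7.65 to 8.50 in embryoid bodies, so its direction was the opposite of that of Casp1. Of the 12 tested interferon signalling genes 5 rose and 1 fell, among them Jak2 (2.41 ± 0.18, adjusted p = 0.0001), while Tyk2 fell by 1.35 ± 0.19.

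Upstream sequences are shown for genes that changed between stages, Casp1, Casp4 and Fas, which were higher in embryoid bodies, and Ripk3, which fell. RefSeq promoter windows of GRCm38.p6 matched 7 of the 8 genes by symbol. The bases before each annotated start were searched on both strands for AANNGAAA, the core letters of interferon regulatory factor sites, and for TTCNNNGAA, the letters of STAT sites. Of the 32851 windows in the table, 21.3% hold the former and 7.02% the latter. The lines below give each sequence 5′ to 3′ on the gene's strand, in lower case, with matches in capitals.
Casp1, chr9:5298267-5298516, plus strand, 250 bases: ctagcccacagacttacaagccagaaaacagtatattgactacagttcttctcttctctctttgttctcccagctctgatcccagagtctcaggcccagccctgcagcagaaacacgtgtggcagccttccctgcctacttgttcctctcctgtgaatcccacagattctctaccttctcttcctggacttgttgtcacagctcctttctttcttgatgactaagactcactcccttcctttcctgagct
Casp4, chr9:5308599-5308848, plus strand, 250 bases: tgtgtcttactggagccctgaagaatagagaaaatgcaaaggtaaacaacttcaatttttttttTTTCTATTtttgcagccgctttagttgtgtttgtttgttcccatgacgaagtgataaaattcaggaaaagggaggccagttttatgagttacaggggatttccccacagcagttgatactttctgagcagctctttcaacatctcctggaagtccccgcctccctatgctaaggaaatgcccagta
Fas, chr19:34290409-34290646, plus strand, 238 bases: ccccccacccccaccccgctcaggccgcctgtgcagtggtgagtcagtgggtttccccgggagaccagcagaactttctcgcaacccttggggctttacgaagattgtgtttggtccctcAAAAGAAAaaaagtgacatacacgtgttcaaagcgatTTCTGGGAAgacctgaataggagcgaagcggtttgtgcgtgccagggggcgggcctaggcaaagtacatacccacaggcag
Ripk3, chr14:55788858-55789107, minus strand, 250 bases: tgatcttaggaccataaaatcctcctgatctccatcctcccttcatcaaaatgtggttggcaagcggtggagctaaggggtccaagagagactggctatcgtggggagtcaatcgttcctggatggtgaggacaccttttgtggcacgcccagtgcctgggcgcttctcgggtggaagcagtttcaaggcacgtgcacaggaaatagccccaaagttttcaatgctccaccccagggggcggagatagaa
The Fas sequence holds 1 match to each motif, and the Casp4 sequence holds 1 match to the former on the opposite strand. Neither motif's letters occur in the 250 bases shown for Casp1 or Ripk3. Casp1 and Casp4 lie beside each other on chromosome 9. Of the windows not shown, that of Casp8 held 2 matches to the former motif, and 1 of the Ripk1 windows 2 matches to the latter. A second Casp4 window, which overlaps the sequence shown, held 2 matches to the former. Of these, 1 is the site marked above, and the other lies past the first base of the annotated gene. That of Mlkl and the other Ripk1 window held none. The bases searched for Mlkl, for Casp8 and in the Ripk1 window with matches lay wholly within the annotated gene. They therefore say nothing about the sequence upstream of those genes. The other Ripk1 window lay partly within the gene.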

How the data were processed

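The values were the log2 expression levels deposited by the authors for 8 arrays. RMA is the method that the submitters' processing notes name, without a version. Array controls (64) were left out, which left 45037 probe sets. Of these, 34945 had 1 gene symbol, 932 several and 9160 none. Each of 18193 named genes was read by its brightest probe set.

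The 12982 genes above the array median on at least 2 arrays were fitted with limma 3.58.1 in R 4.3.3 over 4 groups, with Benjamini-Hochberg adjustment at 0.05. Fold changes are 2 to the power of log2 differences. Promoter windows came from RefSeq. All table columns matched a sample.

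The members and lists were chosen with earlier results of these data known, so no p is adjusted over a list. Named genes were the 8 members, in each list those with the smallest p in the Bmi1 comparisons or called, up to 4, and the 5 most like Mlkl. Il1b on all arrays, Phlda2 and Hspa1b were singled out after their values were seen.

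Alternatives changed the filter, probe set rule, scaling, prior, array weights, blocks and arrays left out. The fit was tested on simulated data.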

Additional observations from a re-analysis of the deposited data

Results flagged for a closer look

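Casp8 was set apart because its 2 arrays labelled Bmi1 were both below both vector arrays in embryoid bodies (a difference of -0.40) and both above both controls in ES cells (0.31). Of all genes tested, 14.4% lay wholly below the vector arrays in embryoid bodies and 25.1% wholly above the controls in ES cells. For Casp8 the difference between the stages was -0.70 log2 units. It is given as a description, without a p-value, because it contains the contrast on which the set was selected, through Mlkl. No group held 4 or more arrays, so single arrays were not examined for distance from their group.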

How the results depend on the processing

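In embryoid bodies, the contrast that chose the set, counts of called members are a description and no test: 1 (Mlkl) as deposited, 0 under the 75th percentile filter, with every probe set tested, after quantile normalization or median centring, with array weights, with a robust prior on an intensity trend, and from the embryoid body arrays alone, and 0 to 1 when single arrays were left out. The ES cell count was 1 with array weights (Mlkl, among 641 genes called) and 0 when single arrays were left out. Between stages the 75th percentile filter, which 1 member passed, left 1 call in each comparison, and leaving out single arrays gave 2 to 4 calls in both (counts that include genes passing the filter through embryoid body arrays and are no support). The median of the 7 genes between stages labelled Bmi1 was 0.37, and 0.70 with the mean of probe sets, 0.089 after quantile normalization, 0.027 after median centring and 0.062 to 0.68 with single arrays left out. Zbp1 between stages in controls turned to -0.22 (quantile) and -0.24 (centring), with -0.20 to 0.37 when single arrays were left out; Casp8 there turned to -0.075 and Mlkl labelled Bmi1 to -0.29 (centring). Leaving out single arrays gave -0.16 to 0.28 for Mlkl between stages labelled Bmi1 and -0.026 to 0.19 for Zbp1 in ES cells. The cause of these changes was not tested. The replicate block with the embryoid body set gave 5 calls between stages labelled Bmi1 (Casp8 and Zbp1 added), and neither block ended a call. Same-numbered arrays deviated together in embryoid bodies (r = 0.721), but not between stages (0.027 and 0.038), so the number was not taken as pairing samples across stages. Within embryoid bodies the main fit leaves this shared deviation in its SE, and the fit with the set as a block takes it out.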
